A study of Homo sapiens with 8 samples.

Results

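The mitosis and G2/M genes are a list of 38 genes that cells switch on as they pass from the end of DNA synthesis (G2) into mitosis (M). They were taken by gene symbol from the expression files of 2D human intestinal epithelial cells (hIECs), in which 37 of the 38 were found among 60558 genes. The remaining member, KIF23, was found by its Ensembl identifier under the clone name AC027237.1, and its values are given apart and left out of the counts. The hIECs were differentiated from the established embryonic stem cell line H9, and poly-A RNA of 8 libraries was sequenced, 2 for each of 4 groups.

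Normal hIECs received neither agent. Normal hIECs with PM10 received particulate matter of the size class PM10. Inflamed hIECs received the cytokines IFNγ and TNFα, and inflamed hIECs with PM10 received both cytokines and PM10. The sample labels give 10 day for every group, and the study's methods place the PM10 in the final week of the cytokine course. Cells of all 4 groups, the normal ones included, were kept in a differentiation medium with EGF, a growth factor, the Wnt inhibitor Wnt-C59 and valproic acid, which inhibits histone deacetylases. All libraries come from 1 cell line, and nothing states that the 2 libraries of a group were separate differentiations, so the p-values measure the spread between libraries, which may be technical. In these bulk libraries fewer cells in G2 or M and less of these RNAs per cell cannot be told apart.

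As background, a cell enters mitosis when CDK1, bound to cyclin A or cyclin B, is activated by CDC25 phosphatases. Aurora and Polo-like kinases then build the spindle, the kinetochore holds each chromosome to it, and the spindle checkpoint holds back the anaphase-promoting complex until every chromosome is attached. Most of these genes are transcribed together, held down in resting cells by the DREAM complex and driven by MYBL2 with MuvB and then by FOXM1. Many of their promoters carry the 2 short elements through which this is known to work, the cell cycle genes homology region (CHR) and the CCAAT box. In the intestine such expression is a property of the dividing crypt cells, and differentiated villus cells have left the cell cycle.

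Since the start sites are where this shared control acts, the promoter letters are shown first. RefSeq start windows of GRCh38.p14, 250 bases before to 50 bases after a start, were held for 31 of the 37 members, with 38 windows in all because some genes have more than 1 start. There was no entry for BIRC5, TTK, UBE2C, FOXM1, AURKA and TPX2. The windows were searched on both strands for TTTGAA, the only form of the CHR that was searched, and for CCAAT. The CHR letters below are TTTGAA alone, so a window without them is not shown to lack a CHR of other letters. The CHR letters were found in 25 of the 38 windows (65.8%), against 10.5% of the 14839 windows of genes tested and 15.2% of all 35116 windows in the reference table. CCAAT was found in 29 (76.3%), against 34.6% of the windows of genes tested and 34.6% of all windows. Both were found in 20 (52.6%), against 4.13% and 5.9%, and neither in 4 (10.5%), against 59.0% and 56.1%. By gene, 22 of the 31 members held TTTGAA in some window, 25 held CCAAT, 18 held both in one window and 2 held neither. Alternative starts of a gene can lie within the same window and share a match.

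The 36 matches to TTTGAA lay close to the start, at a median of -28.5 bases, with 24 of them within 50 bases on either side. The 64 matches to CCAAT lay farther upstream, at a median of -86 bases, with 44 between 110 and 20 bases upstream. The order of the elements can be read from the 150 bases before the start of 1 member of each role group, and from KIF2C, which holds neither. Members with more than 1 start window, such as CDK1 and ECT2, were set aside, and of those left that hold both in that stretch the one with the most negative difference with PM10 in normal hIECs was taken. The cytokinesis genes gave none under this rule. Capitals mark the CHR letters, the CCAAT box and the reverse complement of either, and the last base printed is the one before the RefSeq start.
CCNB2, cyclin B2 (chr15:59104996-59105145, plus strand): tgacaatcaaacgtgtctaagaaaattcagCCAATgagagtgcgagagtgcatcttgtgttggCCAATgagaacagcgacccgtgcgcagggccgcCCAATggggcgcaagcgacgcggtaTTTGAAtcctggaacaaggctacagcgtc
PLK1, Polo-like kinase (chr16:23678739-23678888, plus strand): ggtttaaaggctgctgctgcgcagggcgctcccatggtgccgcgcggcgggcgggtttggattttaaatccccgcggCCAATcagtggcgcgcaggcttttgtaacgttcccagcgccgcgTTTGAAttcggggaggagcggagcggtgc
CDC20, activator of the anaphase-promoting complex (chr1:43358831-43358980, plus strand): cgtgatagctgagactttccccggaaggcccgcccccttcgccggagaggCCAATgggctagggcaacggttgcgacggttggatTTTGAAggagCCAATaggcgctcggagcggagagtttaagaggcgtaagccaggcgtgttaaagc
CENPA, the histone H3 variant of the centromere (chr2:26785906-26786055, plus strand): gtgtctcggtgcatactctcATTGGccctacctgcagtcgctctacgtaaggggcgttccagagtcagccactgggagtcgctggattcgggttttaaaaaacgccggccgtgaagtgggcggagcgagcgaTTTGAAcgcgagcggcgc
PRC1, the bundler of the central spindle (chr15:90994536-90994685, minus strand): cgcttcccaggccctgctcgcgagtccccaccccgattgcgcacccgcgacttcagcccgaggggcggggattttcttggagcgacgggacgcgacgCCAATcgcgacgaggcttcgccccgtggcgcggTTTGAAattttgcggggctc
MKI67, the antigen Ki-67 (chr10:128126424-128126573, minus strand): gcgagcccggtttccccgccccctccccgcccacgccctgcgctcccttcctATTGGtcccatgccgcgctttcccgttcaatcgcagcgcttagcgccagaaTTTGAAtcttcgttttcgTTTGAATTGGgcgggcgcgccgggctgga
KIF2C, a microtubule-depolymerizing kinesin (chr1:44739687-44739836, plus strand): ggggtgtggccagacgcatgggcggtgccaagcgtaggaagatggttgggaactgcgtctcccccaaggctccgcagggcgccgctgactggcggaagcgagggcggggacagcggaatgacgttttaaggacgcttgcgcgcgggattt
In CCNB2, the 3 CCAAT boxes of the printed stretch precede 1 TTTGAA. In MKI67, one TTTGAA overlaps the reverse complement of CCAAT, so the capitals run together there. A match is a run of letters and not a measured binding site, and the genes with and without it are set side by side with their fold changes further on.

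**Figure D1:**
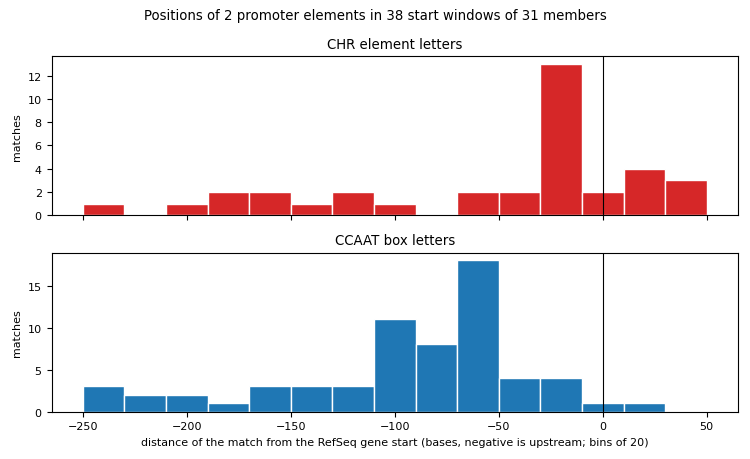
Number of matches to the CHR letters (top) and the CCAAT letters (bottom) in bins of 20 bases along 38 RefSeq start windows of 31 members, by distance from the start in bases. The CHR matches pile up just upstream of the start, with a median of -28.5, and the CCAAT matches lie farther upstream, with a median of -86.

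Expression is given in FPKM, fragments mapped to a transcript scaled to its length and to the size of the library, as the authors computed it. Because FPKM is scaled to length, levels can be set beside each other between genes. Fold changes are differences on the log2(FPKM + 1) scale, which understates the change of genes near 1 FPKM. Each was tested with limma over the 14206 genes that reached 1 FPKM in at least 2 libraries, with p-values adjusted over all of these genes, and a gene is said to have risen or fallen only where the adjusted p was under 0.05. All 37 members reached that level, the lowest single value being 0.670 FPKM for CENPE in the second normal library with PM10. UBE2C had the highest level, between 17.1 and 45.2 FPKM, and CENPE, ASPM and CDC25C the lowest, with no library above 2.64, 3.07 and 3.58 FPKM. In GENCODE release 44, 14 of the 37 members (CCNA2, CDC25C, FOXM1, BUB1B, PLK1, CENPA, NUF2, HMMR, KIF20A, KIF2C, KIF4A, NUSAP1, PRC1 and ANLN) have an exon over an exon of another gene, and since the libraries hold no strand information the reads of such pairs cannot be told apart. The members are measured in the same libraries, so that their counts describe the list and do not multiply the replicates.

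The files hold no read counts, so the depth is unknown. The FPKM of a library summed to between 403354 and 468392, mitochondrial genes took 15.5% to 24.2% of it, with the highest share in the second normal library, and the lowest value above 0 was 0.164 to 0.228 FPKM. The 2 libraries of a group differed little, with a median SD per gene between 0.049 and 0.085 on the log2 scale. Of 26 intestinal epithelial markers, 15 were listed at 0 FPKM in all 8 libraries, among them CDX2, VIL1, MUC2, LYZ, CHGA and SI. KRT8 and KRT18 were high, and all 16 mesenchymal markers were at or above 1 FPKM in some library. The paper, by contrast, reports CDX2, LYZ, MUC2, CHGA and VIL1 in its 2D hIECs by qPCR and by staining. A listed 0 was given to 39158 of the 60558 genes, and without read counts it cannot show that a marker was absent. The reason for this difference from the paper was not tested. The identity of the cells was not tested either, and they are called hIECs here as the labels do.

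The members kept close to one order over the 4 groups. Their FPKM summed to 292 and 303 in the normal libraries, 184 and 177 in the normal libraries with PM10, 494 and 491 in the inflamed libraries and 423 and 427 in the inflamed libraries with PM10. No group overlapped another in this sum, which was highest with cytokines alone and lowest with PM10 alone. Of the 37 members, 28 had group means in the order inflamed, inflamed with PM10, normal and normal with PM10. In 7 others (AURKA, BUB1, BUB1B, MAD2L1, PRC1, ANLN and ECT2) the inflamed hIECs with PM10 stood above the inflamed hIECs, and in UBE2C and NUSAP1 the mean of the normal hIECs stood above that of the inflamed hIECs with PM10, though for UBE2C the libraries of these groups overlapped. In all 37 the normal hIECs with PM10 came last. The 2 inflamed groups are the least separated neighbours in this order, since their libraries overlapped for 8 members.

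**Figure D2:**
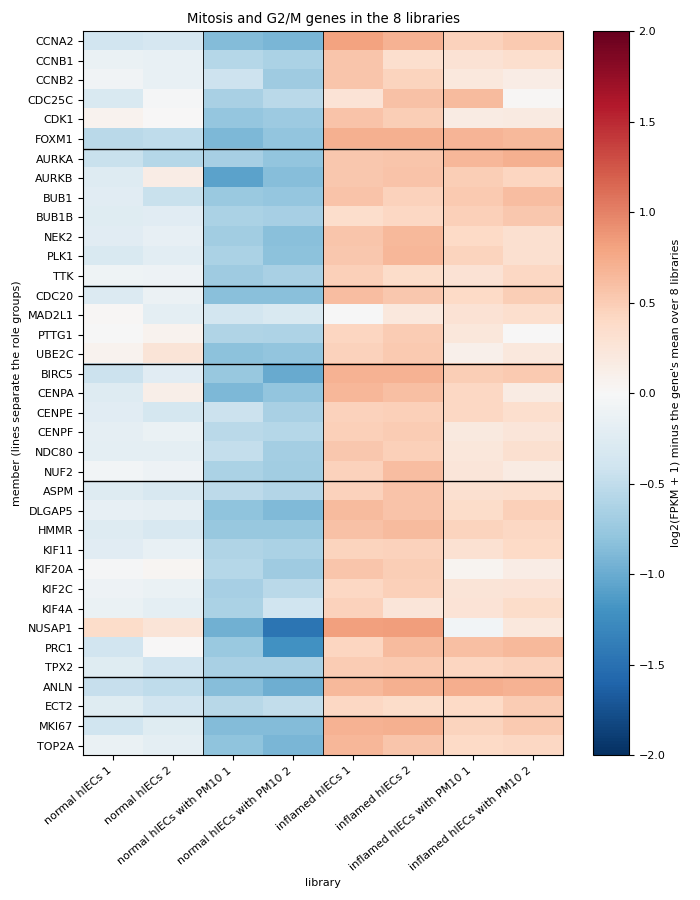
Level of each of 37 members in the 8 libraries as log2(FPKM + 1) minus the gene's own mean over the libraries, with horizontal lines between role groups and vertical lines between the 4 groups. Blue is below and red above the gene's mean, and the normal libraries with PM10 are below it in all 37 members, down to the lowest value in NUSAP1.

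The first comparison asked what cytokines did to these genes in hIECs without PM10. Inflamed hIECs had more of the mitosis and G2/M transcripts than normal hIECs: 36 of the 37 members rose and none fell, where 25.9% of all genes tested rose. The median log2 fold change of the members was 0.70, a fold of 1.63, beside -0.03 over all genes tested. It ran from 0.19 for MAD2L1, which did not pass the test, to 1.24 for FOXM1. At 2-fold or more on the log2(FPKM + 1) scale stood 6 members (4.12% of all genes tested), which were CCNA2, FOXM1, AURKA, BIRC5, ANLN and MKI67, and by the ratio of mean FPKM, with no pseudocount, 10 did. In 36 members both inflamed libraries were above both normal libraries (36.4% of all genes tested), the exception being MAD2L1.

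The same question in cells that had PM10 gave a larger median. All 37 members rose from normal hIECs with PM10 to inflamed hIECs with PM10, where 25.8% of all genes tested rose. The median was 1.09, a fold of 2.14, beside -0.11 over all genes tested, and the range ran from 0.65 for MAD2L1 to 1.63 for ANLN. In this comparison 20 members stood at 2-fold or more (5.32% of all genes tested), or 30 by the ratio of mean FPKM. In all 37 both inflamed libraries were above both normal libraries (34.7% of all genes tested).

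The second question was what PM10 did to them. In normal hIECs, 30 of the 37 members fell with PM10 and none rose, where 3.72% of all genes tested fell. The median was -0.47, a fold of 0.721, beside 0.06 over all genes tested. In all 37 members both libraries with PM10 were below both without it (19.2% of all genes tested), with log2 fold changes from -0.21 for AURKA to -1.53 for NUSAP1, the only member past 2-fold on this scale (0.387% of all genes tested). By the ratio of mean FPKM, CENPA at 0.491 and UBE2C at 0.496 were past 2-fold as well. CDC25C, AURKA, MAD2L1, CENPE, ASPM, KIF4A and ECT2 did not pass the test. These calls rest on the spread estimated over all 4 groups: with only the 4 normal libraries in the fit, limma called 0 of the 37, with 33 below an unadjusted p of 0.05, and called 9 genes in all higher and 14 lower. With a library left out the count was 14 without the first and 12 without the second normal library with PM10. Over all genes tested, 783 rose and 528 fell here, a split that turned to 563 and 749 after centring each library on its median and to 1536 and 514 after scaling to an equal sum without mitochondrial genes.

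In inflamed hIECs the median difference with PM10 was nearer 0. CCNA2, CDK1, PTTG1, UBE2C, CENPF, NUF2, KIF20A and NUSAP1 fell, 8 of the 37 members, and none rose, where 9.02% of all genes tested fell. The median was -0.18, a fold of 0.884, beside -0.01 over all genes tested. The inflamed libraries with PM10 were both below the inflamed ones for 26 members (33.2% of all genes tested), both above for 3 (31.9% of all genes tested) and overlapped for 8. Leaving out 1 library moved the count of members that fell to 0 without the first inflamed library (10 below an unadjusted p of 0.05 in limma), 1 without the second, 1 without the first inflamed library with PM10 and 2 without the second. With only the 4 inflamed libraries in the fit it was 5. Over all genes tested, 883 rose and 1282 fell, and 1136 and 1102 after quantile normalization.

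Whether PM10 differed in effect between inflamed and normal hIECs was tested as an interaction. The estimate was positive for all 37 members, with a median of 0.33, which is to say that the difference with PM10 was less negative with cytokines. It passed the test for 9 members, CDK1, AURKB, BUB1B, TTK, CDC20, UBE2C, DLGAP5, ANLN and TOP2A, and in the other direction for none, where 2.11% of all genes tested passed in the same direction. Without the second normal library with PM10, either inflamed library or the second inflamed library with PM10 limma called 0, with 20 to 24 members at an unadjusted p below 0.05, and without the first normal library with PM10 or the first inflamed library with PM10 it was 1. Over all genes tested the interaction passed for 300 in the positive and 637 in the negative direction, and for 453 and 539 after centring each library on its median. The interaction and the 4 comparisons share libraries and are not independent of each other.

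Inflamed hIECs with PM10 still stood above untreated normal hIECs. Both of their libraries exceeded both normal libraries for 34 of the 37 members, where 38.3% of all genes tested did. The 3 others were PTTG1, UBE2C and NUSAP1.

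**Figure D3:**
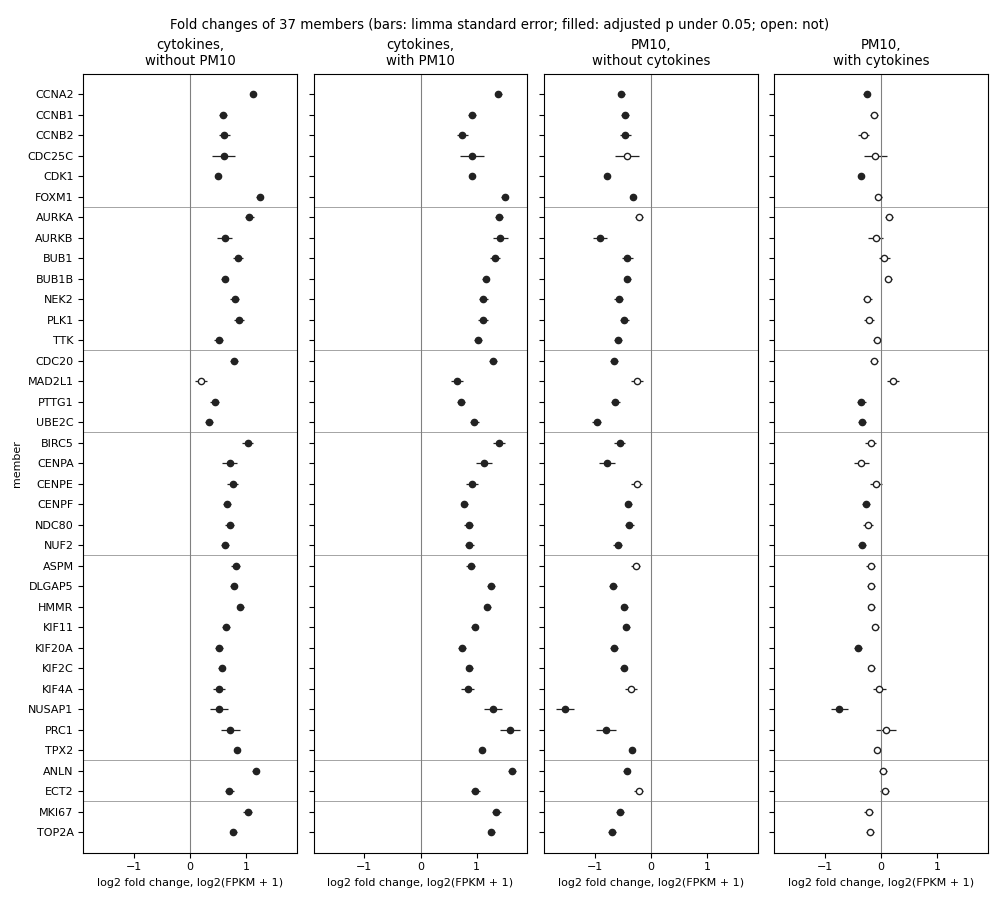
Log2 fold change on the log2(FPKM + 1) scale, with the limma standard error as a bar, of 37 members in 4 comparisons, cytokines without and with PM10 and PM10 without and with cytokines. Filled points passed an adjusted p of 0.05, which 36 and 37 members did with cytokines, all to the right of 0, and 30 and 8 with PM10, all to the left.

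In what follows, a difference with cytokines is that without PM10 unless PM10 is named. Among the genes that start mitosis, FOXM1, the transcription factor of the G2/M programme (ENSG00000111206, chr12:2857680-2877174), gave the largest cytokine difference. Its level was 5.22 and 5.32 FPKM in the normal libraries, 3.87 and 4.22 with PM10, 13.8 and 13.8 in the inflamed libraries and 13.4 and 13.1 with cytokines and PM10. The 2 inflamed groups lay far above both normal groups. FOXM1 rose with cytokines by 1.24 ± 0.060 (SE, adjusted p = 3.41e-06) and, with PM10 present, by 1.50 ± 0.060 (SE, adjusted p = 9.30e-07). FOXM1 fell with PM10 in normal hIECs, -0.32 ± 0.060 (SE, adjusted p = 0.0235), and did not pass in inflamed hIECs, -0.054 ± 0.060 (SE, adjusted p = 0.576).

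CCNA2, which encodes cyclin A2 (ENSG00000145386, chr4:121816444-121823883), followed the same order. It was at 8.12 and 8.38 FPKM in normal hIECs, 5.52 and 5.32 with PM10, 19.9 and 18.3 in inflamed hIECs and 15.4 and 16.1 with both. No libraries of 2 groups overlapped. It rose by 1.12 ± 0.062 (SE, adjusted p = 6.58e-06) with cytokines, and fell with PM10 both without cytokines, -0.53 ± 0.062 (SE, adjusted p = 0.00500), and with them, -0.26 ± 0.062 (SE, adjusted p = 0.0319).

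CDK1, the kinase that drives entry into mitosis (ENSG00000170312, chr10:60778331-60794852), had the smallest cytokine difference of this role group without PM10, though not with it, and the largest PM10 difference. Its level was 18.8 and 17.9 FPKM in normal hIECs and 10.1 and 10.4 with PM10, and 27.1 and 25.7 in inflamed hIECs and 20.1 and 20.4 with PM10. Inflamed hIECs with PM10 thus stood little above the normal ones. The difference with cytokines was 0.50 ± 0.055 (SE, adjusted p = 0.000201) without PM10 and 0.92 ± 0.055 (SE, adjusted p = 6.52e-06) with it. CDK1 fell with PM10 in normal hIECs, -0.79 ± 0.055 (SE, adjusted p = 0.000800), and in inflamed hIECs, -0.37 ± 0.055 (SE, adjusted p = 0.00645). The interaction was 0.42 ± 0.077 (SE, adjusted p = 0.0259). The cyclin B genes CCNB1 and CCNB2 rose with cytokines by 0.59 and 0.60, and CDC25C, the phosphatase that activates CDK1, by 0.60. CCNB1 and CCNB2 fell with PM10 in normal hIECs, -0.46 and -0.45, and CDC25C, whose replicates were spread more widely, gave -0.42 ± 0.21 (SE, adjusted p = 0.224).

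The 7 mitotic kinases all rose with cytokines, and all 7 stood past 2-fold in the presence of PM10. AURKA, the kinase of the spindle poles (ENSG00000087586, chr20:56369389-56392337), was at 4.40 and 3.92 FPKM in normal hIECs, 3.64 and 3.26 with PM10, 9.62 and 9.78 in inflamed hIECs and 10.5 and 10.9 with both. The highest values were those with both agents. AURKA rose with cytokines by 1.05 ± 0.074 (SE, adjusted p = 2.21e-05) and did not pass with PM10 in normal hIECs, -0.21 ± 0.074 (SE, adjusted p = 0.110), or inflamed hIECs, 0.13 ± 0.074 (SE, adjusted p = 0.255).

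PLK1, Polo-like kinase, which acts from mitotic entry to cytokinesis (ENSG00000166851, chr16:23677656-23690367), had 5.44 and 5.86 FPKM in normal hIECs, 4.12 and 3.50 with PM10, 10.6 and 11.6 in inflamed hIECs and 9.77 and 8.95 with both. The 4 groups did not overlap. It rose by 0.86 ± 0.088 (SE, adjusted p = 0.000136) with cytokines and fell with PM10 in normal hIECs, -0.47 ± 0.088 (SE, adjusted p = 0.0224). TTK, the checkpoint kinase also called MPS1 (ENSG00000112742, chr6:80003887-80042527), had the smallest cytokine difference of the kinases without and with PM10 on the log2(FPKM + 1) scale. By the ratio of mean FPKM the smallest without PM10 was AURKB, at 1.548 against 1.554 for TTK. With PM10 it was PLK1, at 2.46 against 2.59 for TTK. TTK was at 3.29 and 3.27 FPKM, 1.78 and 1.92 with PM10, 5.30 and 4.88 with cytokines and 4.54 and 5.04 with both, so that the 2 inflamed groups overlapped. TTK rose by 0.51 ± 0.077 (SE, adjusted p = 0.00104) with cytokines and fell with PM10 in normal hIECs, -0.59 ± 0.077 (SE, adjusted p = 0.00741), with an interaction of 0.51 ± 0.11 (SE, adjusted p = 0.0374).

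AURKB, the kinase of the chromosomal passenger complex, showed the widest gap between the 2 cytokine comparisons among the kinases. It was at 13.4 and 18.1 FPKM in normal hIECs, 7.22 and 8.58 with PM10, 24.3 and 24.6 in inflamed hIECs and 23.5 and 22.2 with both. The 2 normal libraries lay apart from each other. Its log2 fold change with cytokines was 0.61 without PM10 and 1.42 with it, and it fell with PM10 in normal hIECs, -0.91. BUB1 and BUB1B, the checkpoint kinase and its relative BUBR1, rose with cytokines by 0.85 and 0.61, and NEK2, a kinase of centrosome separation, by 0.79. All 3 fell with PM10 in normal hIECs, with log2 fold changes of -0.42, -0.42 and -0.58, and none of the 7 kinases passed with PM10 in inflamed hIECs.

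In the checkpoint and anaphase-promoting complex the cytokine differences without PM10 were the smallest of any role group, with a median of 0.385 over 4 members. Their median with PM10 in normal hIECs was the most negative on the log2(FPKM + 1) scale, at -0.64, close to -0.62 for MKI67 and TOP2A. By the ratio of mean FPKM, MKI67 and TOP2A were at 0.564 and 0.580. CDC20, MAD2L1, PTTG1 and UBE2C were at 0.605, 0.795, 0.6325 and 0.496, so this order depends on the scale. CDC20, which activates the complex (ENSG00000117399, chr1:43358981-43363203), was at 10.8 and 12.2 FPKM in normal hIECs, 6.96 and 6.93 with PM10, 20.9 and 19.7 with cytokines and 17.8 and 18.9 with both. The groups did not overlap. CDC20 rose by 0.77 ± 0.070 (SE, adjusted p = 7.96e-05) with cytokines and fell with PM10 in normal hIECs, -0.65 ± 0.070 (SE, adjusted p = 0.00382), but did not pass in inflamed hIECs, -0.14 ± 0.070 (SE, adjusted p = 0.228). PTTG1, securin, whose destruction frees the sister chromatids (ENSG00000164611, chr5:160421855-160428739), had 28.8 and 30.4 FPKM, 18.9 and 18.6 with PM10, 39.4 and 41.5 with cytokines and 34.0 and 29.1 with both. The last group overlapped the normal one. PTTG1 rose by 0.44 ± 0.077 (SE, adjusted p = 0.00226) with cytokines and fell with PM10 without them, -0.63 ± 0.077 (SE, adjusted p = 0.00576), and with them, -0.35 ± 0.077 (SE, adjusted p = 0.0252).

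MAD2L1, which encodes the checkpoint protein MAD2 (ENSG00000164109, chr4:120055623-120066858), was the only member that did not pass with cytokines without PM10. Its level was 3.90 and 3.18 FPKM in normal hIECs, 2.73 and 2.91 with PM10, 3.80 and 4.55 with cytokines and 4.87 and 5.07 with both. The inflamed libraries overlapped the normal ones, and the highest values came with both agents. The difference with cytokines was 0.19 ± 0.10 (SE, adjusted p = 0.159) without PM10, and it passed with PM10, 0.65 ± 0.10 (SE, adjusted p = 0.00109). UBE2C, the ubiquitin-conjugating enzyme of the complex, went from 32.6 and 37.2 FPKM in normal hIECs to 17.1 and 17.6 with PM10, and from 43.0 and 45.2 in inflamed hIECs to 33.2 and 36.1 with PM10. It fell in both, with log2 fold changes of -0.97 and -0.34, and rose with cytokines by 0.33 without PM10 and 0.96 with it.

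The 6 kinetochore and centromere genes all rose in both cytokine comparisons. BIRC5, survivin, a subunit of the chromosomal passenger complex (ENSG00000089685, chr17:78214186-78225636), was at 5.41 and 6.43 FPKM in normal hIECs, 4.11 and 3.31 with PM10, 13.1 and 13.01 with cytokines and 11.2 and 11.5 with both. The 4 groups did not overlap. It rose by 1.02 ± 0.10 (SE, adjusted p = 0.000115) with cytokines and fell with PM10 in normal hIECs, -0.56 ± 0.10 (SE, adjusted p = 0.0200). CENPE, the kinesin of the kinetochore (ENSG00000138778, chr4:103105349-103198445), was the least abundant member, at 1.23 and 1.06 FPKM, 0.943 and 0.670 with PM10, 2.60 and 2.64 with cytokines and 2.48 and 2.31 with both. Despite these low levels it rose with cytokines by 0.75 ± 0.10 (SE, adjusted p = 0.000535), and it did not pass with PM10, -0.25 ± 0.10 (SE, adjusted p = 0.146). NUF2, a subunit of the NDC80 complex that grips microtubules (ENSG00000143228, chr1:163266576-163355764), had 4.56 and 4.40 FPKM, 2.73 and 2.55 with PM10, 6.98 and 7.88 with cytokines and 5.84 and 5.44 with both. Its groups were separate, and it rose by 0.62 ± 0.077 (SE, adjusted p = 0.000394) with cytokines and fell with PM10 without them, -0.59 ± 0.077 (SE, adjusted p = 0.00741), and with them, -0.34 ± 0.077 (SE, adjusted p = 0.0274). The other members of the group, CENPA, CENPF and NDC80, rose with cytokines by 0.70, 0.65 and 0.71 and fell with PM10 in normal hIECs, with log2 fold changes of -0.78, -0.40 and -0.39.

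The 10 kinesin and spindle genes rose in both cytokine comparisons, and 8 fell with PM10 in normal hIECs. HMMR, a spindle-associated hyaluronan receptor (ENSG00000072571, chr5:163460203-163491941), was at 3.09 and 2.90 FPKM in normal hIECs, 1.88 and 1.88 with PM10, 6.31 and 6.55 with cytokines and 5.65 and 5.48 with both. No groups overlapped. It rose by 0.90 ± 0.065 (SE, adjusted p = 2.67e-05) and fell with PM10 in normal hIECs, -0.47 ± 0.065 (SE, adjusted p = 0.00875). TPX2, which activates AURKA and nucleates spindle microtubules (ENSG00000088325, chr20:31739271-31801805), was more abundant, at 16.9 and 15.4 FPKM, 12.6 and 12.6 with PM10, 29.4 and 29.6 with cytokines and 27.8 and 28.3 with both. TPX2 rose by 0.83 ± 0.057 (SE, adjusted p = 2.00e-05) with cytokines and fell with PM10 in normal hIECs, -0.33 ± 0.057 (SE, adjusted p = 0.0177), and gave -0.071 ± 0.057 (SE, adjusted p = 0.434) in inflamed hIECs.

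NUSAP1, a microtubule-bundling protein of the spindle (ENSG00000137804, chr15:41320794-41381050), had the largest PM10 differences of all members. It went from 16.4 and 15.2 FPKM in normal hIECs to 5.91 and 3.89 with PM10, and from 22.7 and 22.9 in inflamed hIECs to 11.96 and 14.6 with PM10. The inflamed libraries with PM10 were both below the normal ones. NUSAP1 fell both without cytokines, -1.53 ± 0.16 (SE, adjusted p = 0.00326), and with them, -0.74 ± 0.16 (SE, adjusted p = 0.0225), and rose with cytokines by 0.51 ± 0.16 (SE, adjusted p = 0.0277). Its exons overlap those of OIP5 and OIP5-AS1.

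The other members of the group rose with cytokines by between 0.51 for KIF20A, a kinesin of the central spindle, and 0.81 for ASPM, a spindle pole protein. KIF11, the kinesin that drives the poles apart, rose by 0.64, DLGAP5, which stabilizes kinetochore fibres, by 0.77, KIF2C by 0.56, KIF4A, a chromosome-bound kinesin, by 0.51, and PRC1 by 0.72. KIF20A, DLGAP5, PRC1, KIF2C and KIF11 fell with PM10 in normal hIECs, with log2 fold changes of -0.65, -0.67, -0.79, -0.49 and -0.43, while ASPM and KIF4A gave -0.27 and -0.36 and did not pass. The row of KIF23, a kinesin of the midbody named AC027237.1 in the files, was at 5.37 and 4.46 FPKM in normal hIECs, 3.62 and 3.11 with PM10, 11.002 and 10.5 with cytokines and 9.16 and 9.49 with both. Its order of groups was that of most members, and it rose by 1.00 ± 0.093 (SE, adjusted p = 9.24e-05) with cytokines and fell with PM10 in normal hIECs, -0.44 ± 0.093 (SE, adjusted p = 0.0328).

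Both cytokinesis genes rose with cytokines. ANLN, anillin, which organizes the contractile ring (ENSG00000011426, chr7:36389821-36453791), was at 4.66 and 4.49 FPKM in normal hIECs, 3.33 and 2.94 with PM10, 11.2 and 11.8 with cytokines and 11.9 and 11.7 with both, and the last 2 groups overlapped. ANLN rose by 1.16 ± 0.069 (SE, adjusted p = 9.37e-06) without PM10 and by 1.63 ± 0.069 (SE, adjusted p = 1.22e-06) with it, fell with PM10 in normal hIECs, -0.43 ± 0.069 (SE, adjusted p = 0.0138), and gave 0.034 ± 0.069 (SE, adjusted p = 0.768) in inflamed hIECs. ECT2, the exchange factor that activates RhoA at the cleavage furrow (ENSG00000114346, chr3:172750682-172821474), was at 3.41 and 3.01 FPKM, 2.54 and 2.70 with PM10, 5.94 and 5.72 with cytokines and 5.84 and 6.41 with both. ECT2 rose by 0.70 ± 0.078 (SE, adjusted p = 0.000225) with cytokines and did not pass with PM10 in normal hIECs, -0.22 ± 0.078 (SE, adjusted p = 0.120).

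MKI67, whose product Ki-67 coats mitotic chromosomes and marks dividing cells in tissue sections (ENSG00000148773, chr10:128096659-128126423), was at 2.53 and 2.94 FPKM in normal hIECs, 1.54 and 1.54 with PM10, 6.54 and 6.64 with cytokines and 5.32 and 5.66 with both. The 4 groups did not overlap. It rose by 1.03 ± 0.077 (SE, adjusted p = 3.05e-05) with cytokines and fell with PM10 in normal hIECs, -0.55 ± 0.077 (SE, adjusted p = 0.00895), and gave -0.23 ± 0.077 (SE, adjusted p = 0.0889) in inflamed hIECs. TOP2A, the topoisomerase that untangles sister chromatids (ENSG00000131747, chr17:40388525-40417896), was at 10.3 and 9.80 FPKM, 6.08 and 5.58 with PM10, 18.6 and 17.04 with cytokines and 15.3 and 15.4 with both. TOP2A rose by 0.77 ± 0.067 (SE, adjusted p = 6.32e-05) with cytokines and fell with PM10 in normal hIECs, -0.69 ± 0.067 (SE, adjusted p = 0.00280), with an interaction of 0.49 ± 0.094 (SE, adjusted p = 0.0287).

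**Figure D4:**
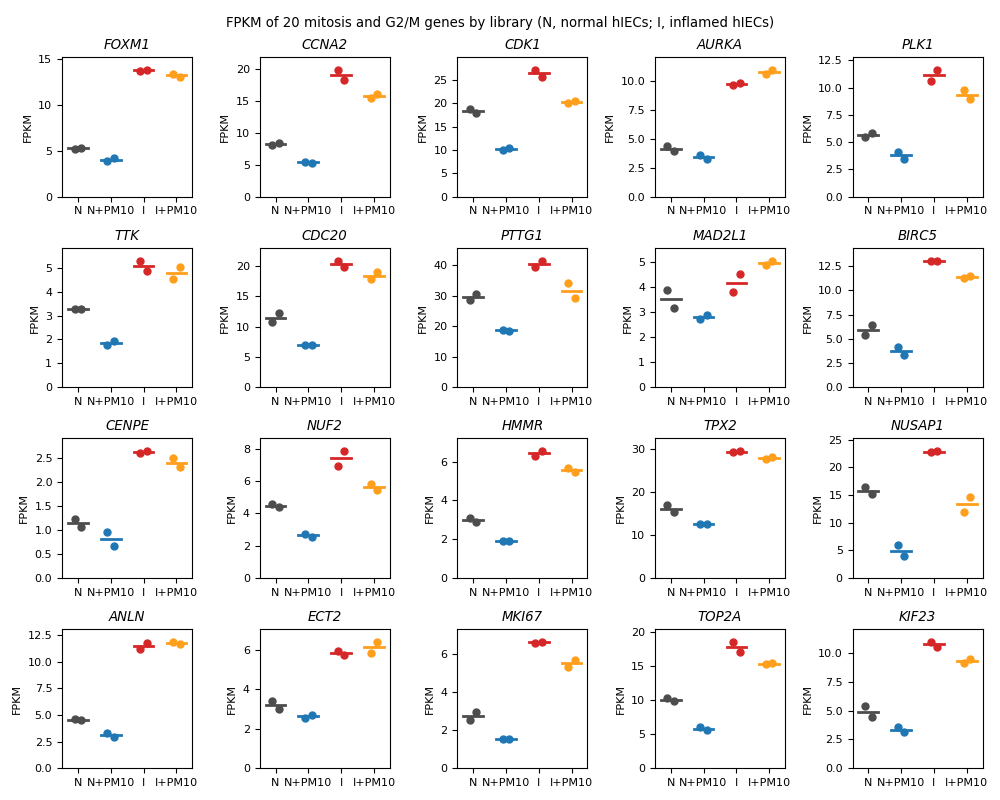
FPKM, on axes from 0, of 19 members of the 7 role groups and of KIF23 in each library (points) with the group mean (line), for normal hIECs (N), inflamed hIECs (I) and each with PM10. In most panels both inflamed groups lie above both normal groups, as for FOXM1 at 13.8 and 13.8 FPKM against 5.22 and 5.32, while in MAD2L1, PTTG1 and NUSAP1 an inflamed group overlaps or lies below the normal one.

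Members with and without the CHR letters are set side by side here as a description, with no test of their difference. The 22 with TTTGAA in a window had median log2 fold changes of 0.70 and 1.04 for cytokines without and with PM10, and -0.46 and -0.18 for PM10 in normal and inflamed hIECs. The 9 without it had medians of 0.61, 0.92, -0.53 and -0.18 in the same order. The ranges of the 2 sets overlapped in all 4 comparisons, from 0.19 to 1.16 against 0.44 to 1.12 for cytokines without PM10, and from -1.53 to -0.22 against -0.91 to -0.25 for PM10 in normal hIECs.

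In the wider list of 112 other mitosis genes the medians had the sign of the members' medians and lay nearer 0, a difference that was not tested. Of the 111 tested, 77 rose and 7 fell with cytokines without PM10, with a median of 0.51, and 78 rose and 13 fell with PM10 present, with a median of 0.65. With PM10, 35 fell and 2 rose in normal hIECs, with a median of -0.18, and 14 fell and 1 rose in inflamed hIECs, with a median of -0.09. Of all genes tested, 25.9% and 25.8% rose in the cytokine comparisons, and 3.72% and 9.02% fell in these PM10 comparisons. The interaction passed for 3, all positive, where 2.11% of all genes tested passed in that direction. CEP55, an abscission protein, rose with cytokines by 1.45 ± 0.059 (SE, adjusted p = 1.32e-06), and CDKN3, a phosphatase that acts on CDK1, fell with PM10 in normal hIECs, -1.06 ± 0.11 (SE, adjusted p = 0.00304).

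The 44 DNA replication genes, which are switched on earlier in the cycle, gave 32 that rose and 1 that fell with cytokines without PM10, with a median of 0.47, and 34 and 1 with PM10 present, with a median of 0.61. Of all genes tested, 25.9% and 25.8% rose in these cytokine comparisons. With PM10, 9 fell in normal hIECs, with a median of -0.11, and 4 in inflamed hIECs, with a median of -0.08, and none rose. Of all genes tested, 3.72% and 9.02% fell in these PM10 comparisons, and the 4 of 44 in inflamed hIECs are near that share. The interaction passed for 1 in the positive direction, as it did for 2.11% of all genes tested. RRM2, the regulatory subunit of ribonucleotide reductase, rose with cytokines by 1.24 ± 0.090 (SE, adjusted p = 2.67e-05). TK1, thymidine kinase, fell with PM10 in normal hIECs, -0.80 ± 0.064 (SE, adjusted p = 0.00149). In both PM10 comparisons the median of the mitosis and G2/M genes was the most negative of the 3 lists, a difference that was not tested.

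**Figure D5:**
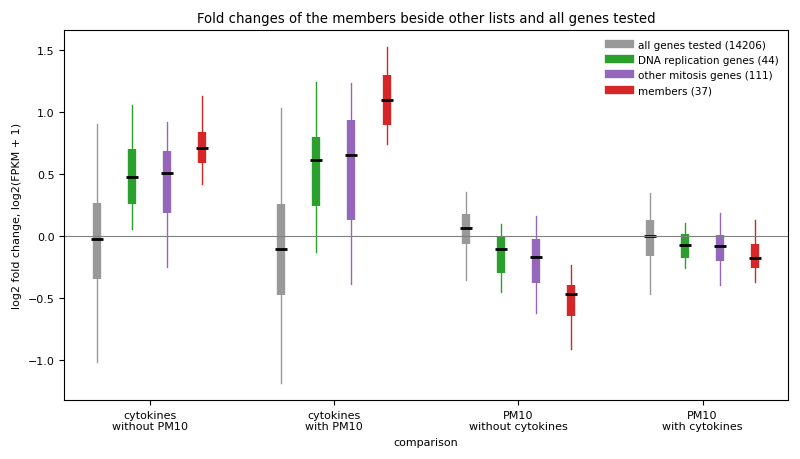
Log2 fold changes of 37 members, 111 other mitosis genes, 44 DNA replication genes and all 14206 genes tested in 4 comparisons, with the median (dash), the middle 50% (thick bar) and the span from the 5th to the 95th percentile (thin line). The members' median lies farthest from that of all genes in each comparison, for example 1.09 against -0.11 for cytokines with PM10.

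The 38 regulators of this transcription did not move as one. With cytokines 18 rose and 7 fell without PM10 (median 0.19), and 18 rose and 8 fell with it (median 0.21). With PM10, 3 rose and 4 fell in normal hIECs (median -0.03), and 5 rose and 4 fell in inflamed hIECs (median 0.03). Of all 14206 genes tested, 3685 (25.9%) rose and 4303 fell with cytokines without PM10, and 3661 (25.8%) and 5625 with it. With PM10, 783 rose and 528 (3.72%) fell in normal hIECs, and 883 rose and 1282 (9.02%) fell in inflamed hIECs. The interaction passed for 2 regulators in each direction, and over all genes tested for 300 (2.11%) in the positive and 637 in the negative.

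Of the drivers, MYBL2, the B-Myb partner of MuvB, was at 8.69 and 8.29 FPKM in normal hIECs, 5.12 and 5.38 with PM10, 12.6 and 12.9 with cytokines and 10.8 and 10.2 with both. This is the order of most members, and MYBL2 rose by 0.53 ± 0.061 (SE, adjusted p = 0.000242) with cytokines and fell with PM10 in normal, -0.60 ± 0.061 (SE, adjusted p = 0.00304), and inflamed hIECs, -0.26 ± 0.061 (SE, adjusted p = 0.0326). E2F1 rose with cytokines by 0.41 and fell with PM10 in normal hIECs, -0.39. E2F7, a repressive E2F that stayed under 2 FPKM, rose by 0.65. Of the MuvB subunits, LIN54, which binds the CHR, rose by 0.33, LIN37 fell (-0.46), and LIN9 gave -0.0014 ± 0.19 (SE, adjusted p = 0.996). Of the pocket proteins, RBL1 (p107) rose by 0.33, while RB1 and RBL2 (p130), the pocket protein of DREAM in resting cells, did not pass without PM10, at 0.064 and -0.11. CCND1, cyclin D1, went from 12.9 and 12.6 FPKM in normal hIECs to 25.3 and 25.3 with cytokines and 39.2 and 38.8 with both, and rose by 0.93 and 1.48 in the 2 cytokine comparisons. The cyclin E genes CCNE1 and CCNE2 did not pass with cytokines without PM10, at -0.17 and 0.36. With PM10 present CCNE2 rose with cytokines by 0.63 ± 0.23 (SE, adjusted p = 0.0464), at no more than 1.47 FPKM, and CCNE1 did not pass, at 0.060.

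The CDK inhibitors went different ways. CDKN1A, which encodes p21, was at 76.6 and 74.7 FPKM in normal hIECs, 91.4 and 91.3 with PM10, 114 and 116 with cytokines and 154 and 147 with both. It rose with each agent, by 0.60 ± 0.043 (SE, adjusted p = 2.57e-05) with cytokines and 0.27 ± 0.043 (SE, adjusted p = 0.0144) with PM10 in normal hIECs, and its highest values fell in the group with both. CDKN2A, which encodes p16 and ARF, rose from 4.93 and 5.80 FPKM in normal hIECs to 15.7 and 17.8 with cytokines, by 1.48 ± 0.094 (SE, adjusted p = 1.31e-05). CDKN1C, which encodes p57, fell from 26.7 and 26.4 to 5.96 and 7.32 FPKM with cytokines, a log2 fold change of -1.86 ± 0.12 (SE, adjusted p = 1.27e-05). With PM10, CDKN1C fell in inflamed hIECs, -0.55 ± 0.12 (SE, adjusted p = 0.022), and did not pass in normal hIECs, 0.36. Its interaction was -0.91 ± 0.16 (SE, adjusted p = 0.0247), opposite in sign to those of the members. CDKN1B, which encodes p27, fell with cytokines as well (-0.66). CDKN2B, which encodes p15, fell with cytokines without PM10 (-0.35) but rose with cytokines in the presence of PM10 by 0.38, rose with PM10 by 0.40 in normal and 1.14 in inflamed hIECs, and had an interaction of 0.74 ± 0.12 (SE, adjusted p = 0.0149).

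Marker genes of cell types moved with the groups as well. The summed FPKM of the 16 mesenchymal markers was 6528 and 6506 in the normal libraries, 5709 and 5769.9 with PM10, 7842 and 7927 with cytokines and 7405 and 7376 with both, which is the group order of most members. Such a sum follows its most abundant genes and does not describe each marker. ACTA2, TAGLN and FN1 rose with cytokines by 0.56, 0.65 and 0.58. COL3A1, PDGFRA and TWIST1 fell, with log2 fold changes of -0.53, -0.69 and -0.65. None of the 16 was at 0, and with cytokines without PM10 8 rose and 6 fell, while with PM10 in normal hIECs 3 rose and 4 fell. Of all 14206 genes tested, 3685 (25.9%) rose and 4303 fell in the first of these comparisons, and 783 rose and 528 (3.72%) fell in the second. The sum of the 26 intestinal epithelial markers was 603 to 656 FPKM in the 4 normal libraries and 298 to 359.8 in the 4 inflamed ones. Most of it was KRT8 and KRT18, which fell with cytokines, with log2 fold changes of -0.82 and -0.99. Of the 6 epithelial markers tested, these 2 fell with cytokines without PM10 and 1 rose, LGR5, by 0.97 ± 0.097 (SE, adjusted p = 0.00013). With cytokines in the presence of PM10, 3 fell and 2 rose, LGR5 by 1.45 and ANPEP by 0.72. Of all 14206 genes tested, 3661 (25.8%) rose and 5625 fell in that comparison. LGR5 also rose with PM10 in inflamed hIECs, by 0.49. The paper, by contrast, reports by qPCR that LGR5 was lower in inflamed hIECs given PM10, and describes it as reduced by the cytokines. The reason for this difference in direction was not tested. The sum of the 12 neuronal markers, of which ELAVL3 and ELAVL4 were among those at 0 in all libraries, was 519 to 589 FPKM in the normal and 634 to 832 in the inflamed libraries, with 2 of 8 tested rising and 5 falling with cytokines without PM10. Most of this sum was UCHL1, which rose with cytokines from 335 and 337 to 506 and 588 FPKM, by 0.70. Among the 5 that fell were STMN2, SNAP25 and DCX, with log2 fold changes of -1.14, -0.95 and -1.40. The sum of the 10 pluripotent stem cell markers was 12.2 to 15.4 FPKM over the 8 libraries, with POU5F1, NANOG, LIN28A, TDGF1 and ZFP42 at 0 in all of them, and 3 of 5 tested rose with cytokines without PM10. The 7 leukocyte markers summed to 0.333 to 1.83 FPKM, with CD14, CD3E and ITGAM at 0 in all libraries, and the 1 tested was CD68. CD68 did not pass with cytokines without PM10, -0.14, or with PM10 in normal hIECs, -0.40, but rose with cytokines in the presence of PM10 by 1.097 and with PM10 in inflamed hIECs by 0.84, at no more than 1.83 FPKM. The part of these markers in the results on the mitosis and G2/M genes was not tested.

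As a description, the genes outside the list whose levels over the 8 libraries were most like the mean of the members were AC083967.1, KIFC1, CENPK, UHRF1 and RAD51AP1, with Pearson correlations of log2(FPKM + 1) from 0.9967 down to 0.9929. The 8 points are the libraries of 4 groups, so a correlation of this kind says mostly that the group means are in the same order. Among the members, the correlation with the same mean ran from 0.8545 for NUSAP1 and 0.8548 for MAD2L1 to 0.9975 for DLGAP5.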

How the data were processed

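RNA-seq of 8 libraries of 2D hIECs (4 groups of 2, set by the sample labels) was analysed. The values the authors deposited are FPKM, 1 per gene and library, made from poly-A selected, non-stranded libraries with Cutadapt 3.7, Sickle 1.33, HISAT2 2.2.1 on GRCh38 and StringTie 2.2.0, with no further scaling between libraries. The annotation release is not given in the sources used here, and 99.51% of the Ensembl identifiers were in GENCODE release 44, which gave positions and exon overlaps. The members, and the lists of other mitosis genes, DNA replication genes, regulators of mitotic gene transcription and intestinal epithelial, mesenchymal, neuronal, pluripotent stem cell and leukocyte markers, were chosen with earlier results of these data known.

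The log2(FPKM + 1) values of all 8 libraries were fitted together in limma 3.58.1 (R 4.3.3), letting the prior variance follow the mean level, for genes that reached 1 FPKM in 2 or more libraries, since 2 libraries are too few to estimate a spread from one group. Benjamini-Hochberg adjustment covered 14206 genes in each of 5 comparisons, with calls at an adjusted p under 0.05. FPKM allows no test on counts. The script was tested on simulated data.

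Any member could be named. Values in every library were given for up to 3 members of a role group, those with the largest and the smallest difference with cytokines without PM10, and those of AURKB, UBE2C and KIF23 were added after the values were seen. Of other lists, genes with the largest called changes were named, and 18 regulators were to be named whatever they showed, of which 1 is not reported here. Alternatives covered the pseudocount, the filter, scaling, a fit of 2 groups alone, a fit without the trend, the replicate number as a block and each library left out. Promoter letters were read from RefSeq windows of GRCh38.p14. Tables and plots used Python 3.11.15, pandas 2.3.3 and matplotlib 3.10.9.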

Additional observations from a re-analysis of the deposited data

Results flagged for a closer look

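For 9 of the 37 members the difference with PM10 was not the same in inflamed and normal hIECs by limma's interaction term, adjusted over all genes tested. Each value is the difference with PM10 in inflamed hIECs minus that in normal hIECs on the log2 scale. BUB1B, the checkpoint protein BUBR1, gave 0.55 ± 0.088 (SE, adjusted p = 0.0162), with a difference of -0.42 in normal and 0.12 in inflamed hIECs. UBE2C gave 0.63 ± 0.11 (SE, adjusted p = 0.0192), with -0.97 and -0.34. CDK1 gave 0.42 ± 0.077 (SE, adjusted p = 0.0259), with -0.79 and -0.37. TOP2A gave 0.49 ± 0.094 (SE, adjusted p = 0.0287), with -0.69 and -0.20. CDC20 gave 0.51 ± 0.099 (SE, adjusted p = 0.0295), with -0.65 and -0.14. DLGAP5 gave 0.49 ± 0.095 (SE, adjusted p = 0.0301), with -0.67 and -0.18. ANLN gave 0.47 ± 0.097 (SE, adjusted p = 0.0353), with -0.43 and 0.034. TTK gave 0.51 ± 0.11 (SE, adjusted p = 0.0374), with -0.59 and -0.073. AURKB gave 0.81 ± 0.19 (SE, adjusted p = 0.0470), with -0.91 and -0.10, and its 2 normal libraries, at 13.4 and 18.1 FPKM, lay farther apart than those of its other groups.

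In normal hIECs both libraries with PM10 were below both without it for each of the 9. These calls rest on few libraries, since the number of members that passed was 0 or 1 whenever any library but the 2 normal ones was left out.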

How the results depend on the processing

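Of 20 other settings, none turned the direction of a called member. With cytokines without PM10 limma called 33 to 36 members higher and with cytokines and PM10 37 when each library was left out in turn. The count of members that fell with PM10 ranged from 12 to 27 in normal and from 0 to 9 in inflamed hIECs, and the count for the interaction from 0 to 10. Over the same left-out libraries the members' medians ran from 0.64 to 0.73 and from 1.04 to 1.12 for cytokines without and with PM10, from -0.55 to -0.47 and from -0.18 to -0.17 for PM10 without and with cytokines, and from 0.32 to 0.35 for the interaction. The counts over all genes ran from 2865 to 3972 higher and 3417 to 4191 lower for cytokines without PM10, from 3017 to 3900 and from 4726 to 5812 with it, from 82 to 1876 and from 112 to 751 for PM10 without cytokines, from 237 to 1376 and from 436 to 1616 with them, and from 90 to 446 and from 159 to 897 for the interaction. Such fits assume that the lone library of a group varies like the others.

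With a pseudocount of 0.1 the members' medians were 0.81 and 1.38 for cytokines without and with PM10, -0.60 for PM10 without cytokines and 0.44 for the interaction, and with 0.5 they were 1.17 for cytokines with PM10 and -0.54 for PM10 without cytokines. By construction a smaller pseudocount widens the differences of low genes. A minimum of 5 FPKM, which tests fewer genes, left 2837 and 3636 genes lower with cytokines without and with PM10 and a members' median of -0.55 for PM10 without cytokines. Quantile normalization gave -0.54 for the latter, median centring 453 genes with a positive interaction, and an equal sum without mitochondrial genes 1536 genes higher with PM10 without cytokines. When a fit held just the 2 groups compared, limma called 0 members lower with PM10 in normal hIECs (33 at an unadjusted p under 0.05, and 9 genes higher and 14 lower in all) and 5 in inflamed hIECs. For the moved scalings the cause was not tested.

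The samples share replicate numbers, and deviations of same-numbered libraries correlated over genes by only -0.0015 to 0.079. No pairing was seen, but such a correlation cannot show that same-numbered libraries were prepared apart. With the replicate block limma called 35, 37, 29 lower, 8 lower and 7 members in the 5 comparisons, against 36, 37, 30, 8 and 9. Alternatives chosen after seeing the data left out the 14 members with exon overlaps, which by the smaller list gave 22 and 23 higher, 18 and 4 lower and a median of 0.98 for cytokines with PM10, and counted KIF23 as a member. Depth is unknown, so the precision of low members such as CENPE could not be stated.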
